A study of Homo sapiens with 5 samples.

Results

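The matrix gene set held the collagen chains (symbols of the form COL, a number, A, a number), the laminin chains (LAMA, LAMB and LAMC) and FN1, TNC, NID1, NID2, HSPG2, AGRN, THBS1, THBS2 and SPARC. Membership was set by gene symbol. It comprised 62 of the 19775 genes that have a probe set of their own on the Affymetrix array: 43 collagen chains, 10 laminin chains and 9 glycoproteins and proteoglycans, with 165 probe sets. COL17A1 and LAMA3 were not analysed here, as no probe set carried their symbol alone. Each gene is described by 1 probe set, that of the highest mean, and other probe sets are given where they bear on a result.

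There were 5 arrays, 1 for each of 5 stably transfected populations of MIAPaCa2, an established line of very poorly differentiated pancreatic ductal adenocarcinoma (PDAC) that, per the study, lacks the α1, α2 and α9 integrins. MP2-α2Δ cells carried the α2 integrin without its cytoplasmic domain, were panned on collagenI coated at 25 μg/mL and were kept on collagenI under zeocin. MP2-α9α2 cells carried a chimera of the α9 extracellular and transmembrane domains with the α2 cytoplasmic domain, and were panned and kept on a fibronectin type III fragment of tenascin, coated at 10 μg/mL, under G418. Transfectants with full-length α2 were also panned on collagenI at 25 μg/mL and selected with zeocin. From these same panned transfectants, MP2-α2/CI cells were maintained on collagenI and MP2-α2/TC cells in standard tissue culture. MP2-mock cells were the mock transfectants. All 5 populations were kept under drug selection. The α2 inserts were driven by a viral (cytomegalovirus) promoter, and the populations were pools and not single clones. Construct, substrate and drug thus differed together between MP2-α2Δ and MP2-α9α2 cells. Against MP2-mock cells, for which no coating is given, construct and substrate differed together in MP2-α2Δ, MP2-α9α2 and MP2-α2/CI cells.

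Collagens are helical trimers of α chains, and laminins are cross-shaped trimers of an α, a β and a γ chain. Collagens I and V form fibrils, while collagen IV and the laminins build the sheet-like basement membrane, to which nidogens, perlecan (HSPG2) and agrin (AGRN) bind. In PDAC the dense fibrous stroma is laid down largely by stellate cells and fibroblasts, and tumour cells make part of the basement membrane. The α2β1 integrin is a receptor for collagens and laminins, so the question here is which matrix genes these cells transcribe themselves and whether the α2 constructs and the substrates go with a difference.

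The values are the authors' normalized values, read as log2. With 1 array per population no difference has a replicate error and no test was made. A difference is called here only when it reached 2-fold, which is 1 on the log2 scale, and it is set beside the percentage of all genes that did so. Background was taken on each array from 107 probe sets of odorant receptors, at their 95th percentile, and these floors were 2.21 in MP2-α2Δ and MP2-α9α2 cells, 2.27 in MP2-α2/CI, 2.25 in MP2-α2/TC and 2.25 in MP2-mock cells. The lowest value was 2.207 on the MP2-α2Δ and MP2-α9α2 arrays and 2.240 on the other 3, and the arrays were taken as normalized in these 2 sets. Among probe sets that every array read above its floor, the median difference from MP2-mock was 0.53 in MP2-α2Δ cells and 0.54 in MP2-α9α2 cells. The medians of the arrays over these probe sets were 7.72 in MP2-α2Δ, 7.69 in MP2-α9α2, 6.89 in MP2-α2/CI, 6.89 in MP2-α2/TC and 6.88 in MP2-mock cells. Values compared across the sets carry this shift.

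Cell identity was looked at through marker genes. The keratins KRT8, KRT18 and KRT19 read over 11 on every array (KRT19, for example, 12.99 in MP2-α2Δ, 12.75 in MP2-α9α2, 12.11 in MP2-α2/CI, 11.74 in MP2-α2/TC and 11.82 in MP2-mock cells). The epithelial genes EPCAM and CDH1 lay at or near the floor, and the ductal keratin KRT7 read 2.37 in MP2-α2Δ cells and lay at the minimum of the other 4 arrays. Of the 2 mesenchymal markers the filament gene VIM read 15.48 to 15.85, whereas N-cadherin (CDH2) lay near the floor, at 2.21 in MP2-α2Δ and MP2-α9α2 cells and 2.31 in the other 3. Of 8 fibroblast and stellate cell markers 1, ACTA2, read over 4 on any array (8.63 in MP2-α2Δ, 8.47 in MP2-α9α2, 7.13 in MP2-α2/CI, 7.13 in MP2-α2/TC and 7.00 in MP2-mock cells), while DCN, LUM, PDGFRA, FAP and POSTN were at the minimum of every array. None of 4 endothelial and 3 blood cell markers read over 4. The genes of the transgenes gave little check of the labels. ITGA9 was at the floor on all 5 arrays, MP2-α9α2 included. ITGA2 read 7.28 in MP2-α2Δ cells and lay at the floor in the other 4 populations, both α2 populations included. Per the study, the α2 construct lacks the 3′ end that the array's probes read. By that account the value in MP2-α2Δ cells is not a reading of the construct, and its source was not tested.

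Most matrix genes read at or near background. Of the 62, 32 were above the floor on at least 1 array (51.6%, against 68.4% of all genes) and 21 read over 4 on at least 1 array (33.9%, against 53.5%). The other 30 were at the floor on all 5 arrays. Counted per array, 21 genes read over 4 in MP2-α2Δ cells, 20 in MP2-α9α2 cells and 17 in each of MP2-α2/CI, MP2-α2/TC and MP2-mock cells. A fixed cut of 4 carries the shift between the 2 sets, so these counts do not show that more matrix genes were transcribed in 1 set. The 4 genes over 4 on some arrays but not all were COL7A1, COL26A1, LAMB1 and LAMB3, where 879 of the 10579 genes over 4 on any array were so. With quantile normalization LAMB1 read 3.94 in MP2-α2Δ cells, under the cut. Among the classes of more than 1 gene, the chains of collagen VI and the laminin β chains were most often over 4 (3 of 5 and 3 of 4), whereas none of 10 fibril-associated collagens, 3 short-chain collagens and 5 adhesive and matricellular glycoproteins were. COL16A1, a fibril-associated collagen, read 3.40 on the MP2-α2Δ and MP2-α9α2 arrays and 2.66 on the other 3, and COL10A1, the short-chain collagen of growth plate cartilage, 2.27 and 2.34 on the same arrays. COL26A1 read 4.74 in MP2-α2Δ, 4.74 in MP2-α9α2, 3.64 in MP2-α2/CI, 3.75 in MP2-α2/TC and 3.64 in MP2-mock cells.

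**Figure D1:**
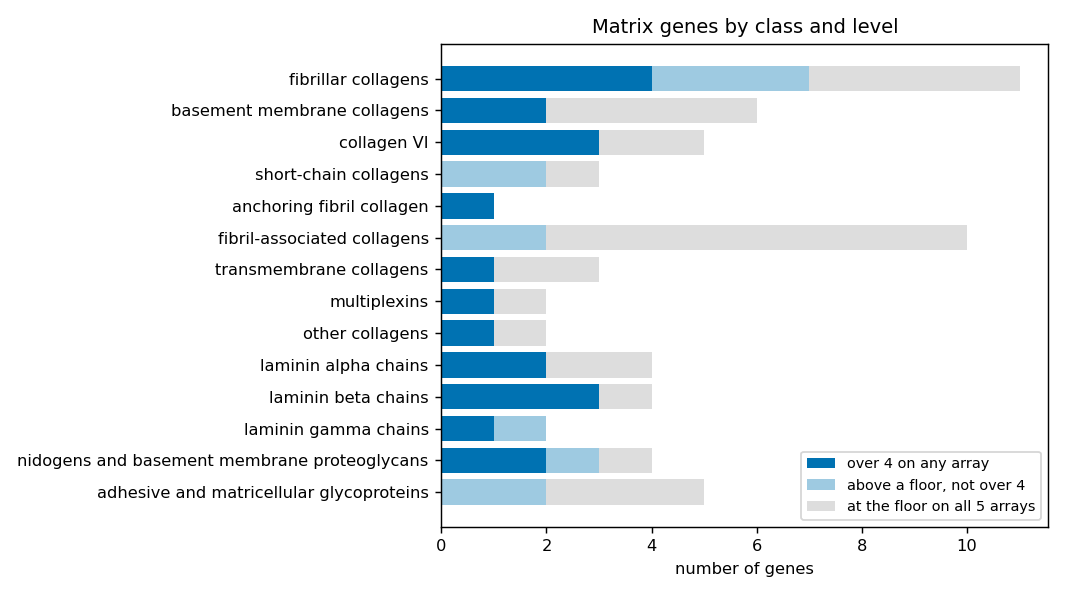
Number of matrix genes in each of 14 classes (x axis) by their level: over 4 on any array, above the floor of any array but not over 4, or at the floor on all 5 arrays. Fibril-associated collagens hold the most genes at the floor, 8 of 10, while 3 of 5 collagen VI chains and 3 of 4 laminin β chains read over 4.

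The adhesive glycoproteins were among the genes at background. FN1, which encodes fibronectin, was read by 7 probe sets, and the highest value of any of them was 2.29, in MP2-α2/CI, MP2-α2/TC and MP2-mock cells. All 7 probe sets of THBS1 (thrombospondin-1), both of SPARC and all 3 of TNC were at or below the floor on all 5 arrays. TNC encodes tenascin-C, of the family from which the substrate of the MP2-α9α2 cells came. THBS2 read 2.47 on the MP2-α2Δ and MP2-α9α2 arrays and 2.50 in MP2-α2/CI, MP2-α2/TC and MP2-mock cells, just above the floor. NID1 and NID2, the nidogens that link laminin to collagen IV, did not exceed the floor by more than 0.01.

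**Figure D2:**
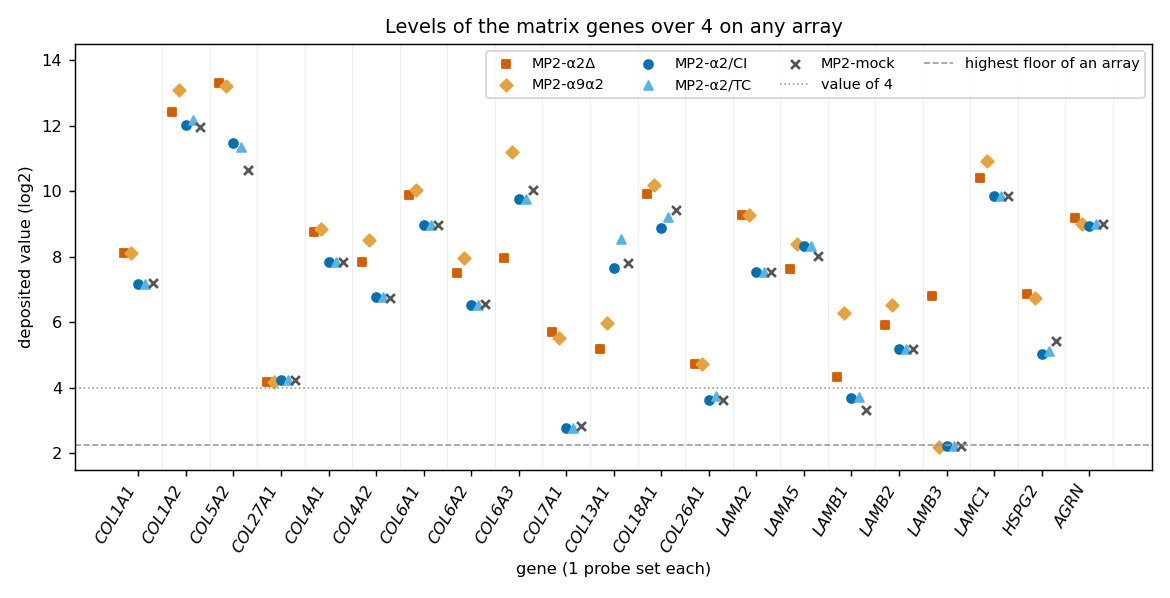
Deposited log2 value (y axis) of the 21 matrix genes over 4 on any array, 1 probe set per gene, with 1 point for each population and no error bars because each had 1 array. MP2-α2Δ and MP2-α9α2 lie on a scale shifted against the other 3, LAMB3 stands over the floor in MP2-α2Δ alone, and COL13A1 is lower in MP2-α2Δ and MP2-α9α2 than in the other 3.

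The fibrillar collagen genes over 4 were COL1A1, COL1A2, COL5A2 and COL27A1. COL1A2, the α2 chain of collagen I, read 12.42 in MP2-α2Δ, 13.08 in MP2-α9α2, 12.01 in MP2-α2/CI, 12.18 in MP2-α2/TC and 11.97 in MP2-mock cells. Its partner chain COL1A1 read 8.11 in MP2-α2Δ, 8.11 in MP2-α9α2, 7.18 in MP2-α2/CI, 7.18 in MP2-α2/TC and 7.19 in MP2-mock cells by 1 probe set of a kind whose probes match other sequences as well. Its other 4 probe sets were at or near the minimum on every array. COL1A1 is therefore uncertain, and the levels of the partner chains were not compared. COL5A2, the α2 chain of collagen V, read 13.32 in MP2-α2Δ, 13.22 in MP2-α9α2, 11.48 in MP2-α2/CI, 11.36 in MP2-α2/TC and 10.66 in MP2-mock cells. Its partner COL5A1 did not exceed 2.50 on any array. COL3A1, the chain of collagen III, was at the floor throughout, and COL27A1 lay between 4.17 and 4.23 by its main probe set. A second probe set of COL27A1 read 4.90 in MP2-α2Δ, 4.90 in MP2-α9α2, 3.46 in MP2-α2/CI, 3.78 in MP2-α2/TC and 3.47 in MP2-mock cells, so that it was past 2-fold across the sets as deposited.

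Of the collagen IV chains, COL4A1 and COL4A2 were read on all 5 arrays and COL4A3, COL4A4, COL4A5 and COL4A6 were at the floor on all 5. COL4A1 read 8.76 in MP2-α2Δ, 8.85 in MP2-α9α2 and 7.84 in each of MP2-α2/CI, MP2-α2/TC and MP2-mock cells. COL4A2 read 7.85 in MP2-α2Δ, 8.52 in MP2-α9α2, 6.79 in MP2-α2/CI, 6.79 in MP2-α2/TC and 6.75 in MP2-mock cells. The genes of the measured pair lie head to head on chromosome 13 and are transcribed away from each other. In the RefSeq windows for assembly GRCh38.p14, 250 bases before to 50 after each start, the COL4A1 start lies at position 110307157 on the minus strand and the COL4A2 start at 110307284 on the plus strand, so that 127 bases separate them. The COL4A1 window (chr13:110307108-110307407, minus strand) is shown because it holds the starts of both measured chains, with the 127 bases from the COL4A2 start up to the COL4A1 start in capitals.
COL4A1: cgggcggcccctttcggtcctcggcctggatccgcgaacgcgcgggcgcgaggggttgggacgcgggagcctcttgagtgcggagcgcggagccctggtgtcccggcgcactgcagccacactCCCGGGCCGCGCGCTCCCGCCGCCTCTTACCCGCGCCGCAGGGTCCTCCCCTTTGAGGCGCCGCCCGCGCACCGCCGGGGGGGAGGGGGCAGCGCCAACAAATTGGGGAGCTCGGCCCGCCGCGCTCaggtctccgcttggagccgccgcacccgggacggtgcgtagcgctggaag

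Other basement membrane genes were also read on every array. LAMC1, the γ1 chain of most laminins, read 10.42 in MP2-α2Δ, 10.92 in MP2-α9α2 and 9.87 in each of the other 3 populations. LAMA5 read 7.63 in MP2-α2Δ, 8.39 in MP2-α9α2, 8.33 in MP2-α2/CI, 8.33 in MP2-α2/TC and 8.04 in MP2-mock cells. LAMA2, known from muscle basement membrane, read 9.28 in MP2-α2Δ, 9.27 in MP2-α9α2 and 7.55 in each of the other 3 populations by its main probe set. Of its other probe sets 2 lay between 7.29 and 9.48, and 1 was at the minimum of every array. LAMB2 read 5.93 in MP2-α2Δ, 6.54 in MP2-α9α2 and 5.19 in each of the other 3. LAMC1, LAMA2 and LAMB2 thus read the same on the arrays of MP2-α2/CI, MP2-α2/TC and MP2-mock cells to 2 decimals. Collagen XVIII (COL18A1), the source of endostatin, read 9.92 in MP2-α2Δ, 10.19 in MP2-α9α2, 8.90 in MP2-α2/CI, 9.22 in MP2-α2/TC and 9.44 in MP2-mock cells. AGRN stayed between 8.94 and 9.20 by its main probe set, whereas its second read 6.60 in MP2-α2Δ, 6.37 in MP2-α9α2, 8.55 in MP2-α2/CI, 8.61 in MP2-α2/TC and 8.55 in MP2-mock cells.

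The comparison of α2 cells with mock cells asks whether full-length α2, on collagenI or on plastic, goes with another matrix profile. No matrix gene reached 2-fold. Of 30 measured matrix genes 0 were called in MP2-α2/CI cells against MP2-mock, where 0.65% of all genes were, and 0 of 30 in MP2-α2/TC cells against MP2-mock, where 0.67% were. Where collagenI was set against plastic (MP2-α2/CI minus MP2-α2/TC), 0 of 30 were called, and 0.19% of all genes. With so low a background, a count of 0 of 30 says little about the matrix genes in particular.

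The largest positive difference in MP2-α2/CI cells was that of COL5A2, 0.83 higher than in MP2-mock cells, with 0.70 in MP2-α2/TC cells. Its second probe set differed by 0.29 in MP2-α2/CI and 0.40 in MP2-α2/TC cells. COL18A1 differed by -0.54 in MP2-α2/CI and -0.22 in MP2-α2/TC cells, and its second probe set by -0.39 in MP2-α2/CI and -0.23 in MP2-α2/TC cells. HSPG2 read 5.02 in MP2-α2/CI, 5.13 in MP2-α2/TC and 5.43 in MP2-mock cells, and COL6A3 differed by -0.29 in each of the α2 populations. LAMB1 differed by 0.39 in both, at 3.71 in MP2-α2/CI, 3.71 in MP2-α2/TC and 3.32 in MP2-mock cells, and its second probe set by 0.00 in MP2-α2/CI and 0.19 in MP2-α2/TC cells. COL13A1, a transmembrane collagen of cell contacts, read 7.65 in MP2-α2/CI, 8.55 in MP2-α2/TC and 7.82 in MP2-mock cells, so that MP2-α2/TC cells stood apart by 0.73. Its other 2 probe sets differed by 0.00 and 0.23 there.

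Many values were the same to the last digit. Among matrix gene probe sets over 4, 11 of 30 (36.7%) had identical values (within 1e-06) on the MP2-α2/CI, MP2-α2/TC and MP2-mock arrays, against 24.4% of all single-gene probe sets. On the other pair of arrays, MP2-α2Δ and MP2-α9α2, 8 of 36 (22.2%) were identical, against 12.2%. COL4A1, COL6A1, LAMB2 and LAMC1 were among the first. No source used here says how the authors' processing gave identical values, so a difference of 0 on these arrays is not a measure of precision.

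The comparison of MP2-α2Δ with MP2-α9α2 cells sets the α2 ectodomain on collagenI against the α2 cytoplasmic domain on tenascin. Of 31 measured matrix genes 3 reached 2-fold (9.68%, against 15% of all genes): LAMB3 was higher and COL6A3 and LAMB1 were lower in MP2-α2Δ cells. In 1 direction at a time, 1 of 31 was higher, against 10.1% of all genes, and 2 were lower, against 4.97%. Of the 21 matrix genes over 4 on either array, 6 read higher (28.6%), 12 lower (57.1%) and 3 the same (14.3%) in MP2-α2Δ cells. Of all genes over 4 on either array, 43.7% read higher, 46.3% lower and 10% the same. The median difference of the 21 was -0.17, against 0.00 over all genes that read over 4 on either array. Over the 31 measured matrix genes the median was 0.00, so that the value of -0.17 depends on the cut at 4.

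**Figure D3:**
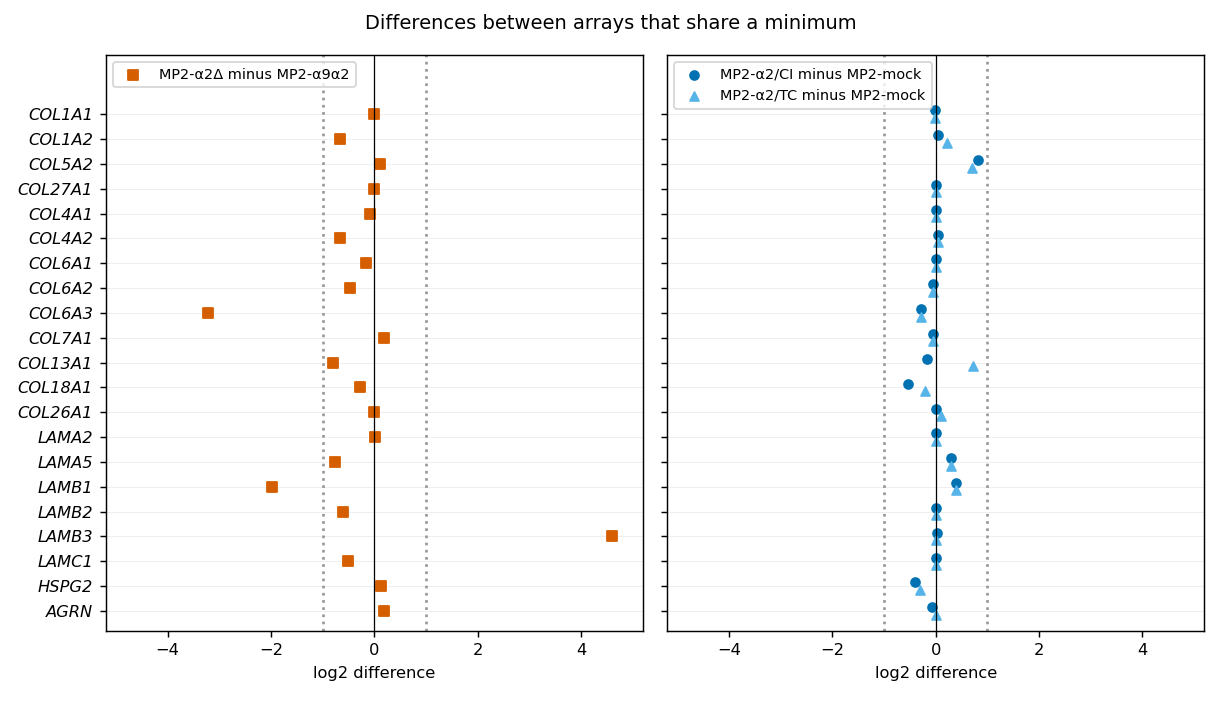
Log2 difference (x axis) of the 21 matrix genes over 4 on any array, between arrays that share a minimum: MP2-α2Δ minus MP2-α9α2 on the left, and MP2-α2/CI and MP2-α2/TC minus MP2-mock on the right. Dotted lines mark 2-fold, which only LAMB3, COL6A3 and LAMB1 pass on the left and no gene passes on the right, and the LAMB3 point is a lower bound.

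LAMB3 encodes the β3 chain of laminin-332, which anchors epithelia to the basement membrane through hemidesmosomes. It read 6.80 in MP2-α2Δ cells and lay at the minimum in MP2-α9α2 (2.21), MP2-α2/CI (2.24), MP2-α2/TC (2.24) and MP2-mock cells (2.24), by its only probe set. Relative to MP2-α9α2 cells it was at least 24.1-fold higher in MP2-α2Δ cells, or at least 4.59 on the log2 scale. Against MP2-mock cells the bound was 4.55 as deposited, 3.71 with each array centred and 4.02 with quantile normalization. Its partner chain LAMA3 was not analysed here. ITGB4, the β4 integrin of the laminin-332 receptor α6β4, was also higher in MP2-α2Δ cells, at 9.89, with 8.75 in MP2-α9α2 cells, and ITGA6 read 9.60 in both. ITGA2 and ITGA1, receptors for collagens and laminins, had the same pattern over the arrays as LAMB3. ITGA1 read 6.60 in MP2-α2Δ cells and lay at the floor in the other 4 populations, as ITGA2 did. Their part in the LAMB3 difference was not tested. With 1 array, transcription of these genes by the transfected cells and RNA from other cells mixed in cannot be told apart. In RNA from a pool of cells, more cells with a transcript and more transcript per cell cannot be told apart.

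RefSeq lists 3 windows for LAMB3 on chromosome 1 (GRCh38.p14). They were searched on both strands for TGACTCA, an AP-1 site. They were also searched for GGGCGG, a GC box, for the letters of the CCAAT box and, as a TATA box, for TATAAA. Among all 35116 windows of this length, 4.95% held the AP-1 site, 45% the GC box, 34.6% the CCAAT box and 11.5% the TATA box. The array does not tell which start was used. The first window and the third are shown because LAMB3 had the largest difference of the set, with matches in capitals. The first (chr1:209652376-209652675, minus strand) holds 1 GC box, and so does the second, which overlaps it. The third (chr1:209651325-209651624, minus strand) holds 1 AP-1 site, 1 GC box and 1 CCAAT box. A match is a match of letters and not a shown binding site.
LAMB3 (window 1): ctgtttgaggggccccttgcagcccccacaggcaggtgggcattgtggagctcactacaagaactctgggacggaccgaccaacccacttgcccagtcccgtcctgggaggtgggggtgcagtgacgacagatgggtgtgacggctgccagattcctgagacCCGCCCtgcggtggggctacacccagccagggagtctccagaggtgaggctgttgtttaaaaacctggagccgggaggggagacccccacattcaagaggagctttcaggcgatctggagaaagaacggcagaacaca
LAMB3 (window 3): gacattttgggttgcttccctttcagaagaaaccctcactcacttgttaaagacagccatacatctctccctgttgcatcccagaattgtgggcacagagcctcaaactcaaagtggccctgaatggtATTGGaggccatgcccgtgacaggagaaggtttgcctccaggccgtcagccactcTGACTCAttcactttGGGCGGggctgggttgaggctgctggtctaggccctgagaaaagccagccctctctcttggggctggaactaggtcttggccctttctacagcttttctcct

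COL6A3 and LAMB1 ran the other way. COL6A3, the chain that extends the globular ends of the collagen VI trimer, read 7.98 in MP2-α2Δ cells and 11.20 in MP2-α9α2 cells by its only probe set. It read 9.77 in MP2-α2/CI, 9.77 in MP2-α2/TC and 10.06 in MP2-mock cells. The log2 difference between MP2-α2Δ and MP2-α9α2 was -3.22, or 9.35-fold, and across the sets the MP2-α2Δ value was also below those of the other 3. Its partner chains differed far less. In MP2-α2Δ cells COL6A1 read 9.88 and COL6A2 7.50, and in MP2-α9α2 cells 10.05 and 7.97, so that the log2 differences were -0.17 and -0.47. COL6A1 and COL6A2 are neighbours on chromosome 21, while COL6A3 lies on chromosome 2.

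LAMB1, the β1 chain that pairs with γ1 in many laminins, read 4.32 in MP2-α2Δ cells and 6.30 in MP2-α9α2 cells (-1.98). Its second probe set gave 2.68 for MP2-α2Δ and 4.29 for MP2-α9α2 (-1.61). Both probe sets thus ran in the same direction and past 2-fold. The other chains of the laminins that hold β1 differed less, by -0.76 for LAMA5, -0.50 for LAMC1 and 0.02 for LAMA2. The second probe set of LAMC1 differed by -0.71. The windows of both genes are shown to set them beside that of LAMB3. The COL6A3 window (chr2:237414115-237414414, minus strand) held none of the 4 motifs, which says only that these letters are not in it. The LAMB1 window (chr7:108003112-108003411, minus strand) held 4 matches to the GC box, some of which overlap, and none of the other motifs.
COL6A3: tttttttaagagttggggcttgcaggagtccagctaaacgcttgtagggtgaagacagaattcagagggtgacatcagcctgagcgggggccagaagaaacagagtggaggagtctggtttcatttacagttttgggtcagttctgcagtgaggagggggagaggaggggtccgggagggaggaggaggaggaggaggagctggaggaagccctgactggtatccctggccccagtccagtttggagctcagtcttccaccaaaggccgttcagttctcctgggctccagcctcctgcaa
LAMB1: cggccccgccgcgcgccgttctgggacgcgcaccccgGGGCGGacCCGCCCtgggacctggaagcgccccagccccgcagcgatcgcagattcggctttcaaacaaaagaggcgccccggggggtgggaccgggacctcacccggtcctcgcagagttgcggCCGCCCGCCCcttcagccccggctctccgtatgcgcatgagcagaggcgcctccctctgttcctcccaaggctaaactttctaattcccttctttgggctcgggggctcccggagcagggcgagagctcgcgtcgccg

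The remaining matrix genes stayed under 2-fold between MP2-α2Δ and MP2-α9α2 cells. COL13A1 read 5.18 in MP2-α2Δ cells and 5.98 in MP2-α9α2 cells (-0.80) by its main probe set and the same in both by its other 2. COL4A2 differed by -0.67 and by 0.00 on its second probe set, and LAMB2 by -0.61. COL1A2 differed by -0.66, 0.00 and 0.54 over its 3 probe sets, so that its direction is not settled. COL18A1 differed by -0.28 and, on its second probe set, -0.77. COL5A2 (0.10), COL7A1 (0.19), HSPG2 (0.12), AGRN (0.19) and LAMA2 (0.02) read slightly higher in MP2-α2Δ cells.

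Levels in MP2-α2Δ and MP2-α9α2 cells were set against MP2-mock across the 2 sets, and here many calls turned on the scaling. As deposited, 10 of 32 matrix genes were called in MP2-α2Δ cells against MP2-mock, where 37.1% of all genes were, with 8 higher (30.2% of all genes) and 2 lower (6.91%). With each array centred 7 were called (34.6% of all genes), 3 higher (11.4%) and 4 lower (23.3%). With quantile normalization 6 were called (30.7%), 3 higher (14.2%) and 3 lower (16.6%). The share of matrix genes called was 31.2% as deposited, 21.9% centred and 18.8% quantile normalized, below that of all genes under each scaling. In MP2-α9α2 cells against MP2-mock 15 of 31 were called as deposited, where 42.7% of all genes were, with 14 higher (31.7%) and 1 lower (11%). When centred 5 were called (40.7% of all genes), 3 higher (14.9%) and 2 lower (25.8%), and with quantile normalization 4 (37.6%), 3 higher (17.5%) and 1 lower (20.1%). The share of matrix genes called was 48.4% as deposited, above that of all genes, and 16.1% centred and 12.9% quantile normalized, below it. In MP2-α2Δ against MP2-α2/CI cells, both kept on collagenI, 10 of 32 were called as deposited (36.6% of all genes), 8 higher (29.9%) and 2 lower (6.65%). When centred 8 were called (33.4%), 4 higher (10.9%) and 4 lower (22.5%), and with quantile normalization 6 (29.2%), 3 higher (13.4%) and 3 lower (15.7%). These comparisons share arrays, and their calls are not independent of each other. When centred, COL20A1 was among the genes called lower in each of them, though it read near background. It read 2.24 in MP2-α2Δ and MP2-α9α2, 2.59 in MP2-α2/CI and 2.83 in MP2-mock cells.

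A few genes were past 2-fold in the same direction under all 3 scalings. How many of all genes were so was not counted, and under 1 scaling at a time 29.2% to 42.7% of all genes were called in these comparisons. The set of arrays and the construct differed together here and cannot be told apart, and rescaling whole arrays does not separate them. COL7A1, the chain of the anchoring fibrils under epithelia, read 5.71 in MP2-α2Δ cells and 5.52 in MP2-α9α2 cells. It read 2.79 in MP2-α2/CI, 2.79 in MP2-α2/TC and 2.84 in MP2-mock cells. Its difference from MP2-mock was 2.87 in MP2-α2Δ cells as deposited, 2.03 when centred and 2.23 with quantile normalization, and 2.68, 1.87 and 2.13 in MP2-α9α2 cells. Its second probe set did not exceed 2.46 on any array. COL5A2 was higher than in MP2-mock cells by 2.66, 1.82 and 2.17 in MP2-α2Δ cells and by 2.56, 1.75 and 2.06 in MP2-α9α2 cells under the same scalings. LAMB3 was higher in MP2-α2Δ cells and LAMB1 in MP2-α9α2 cells (2.98, 2.18 and 2.33).

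COL13A1 was lower than in MP2-mock cells by its main probe set, with differences of -2.64, -3.48 and -3.46 in MP2-α2Δ cells and -1.84, -2.64 and -2.66 in MP2-α9α2 cells. A further probe set read 2.66 on the MP2-α2Δ and MP2-α9α2 arrays, against 5.62 in MP2-α2/CI, 5.86 in MP2-α2/TC and 5.63 in MP2-mock cells. The third read 5.61 on both of those and 5.13 in the other 3, in the opposite direction as deposited. COL6A3 was lower in MP2-α2Δ cells (-2.08, -2.92 and -2.82). Against MP2-α2/CI cells the same 5 genes were past 2-fold in MP2-α2Δ cells under all 3 scalings as against MP2-mock cells: COL5A2, COL7A1 and LAMB3 higher, and COL6A3 and COL13A1 lower.

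**Figure D4:**
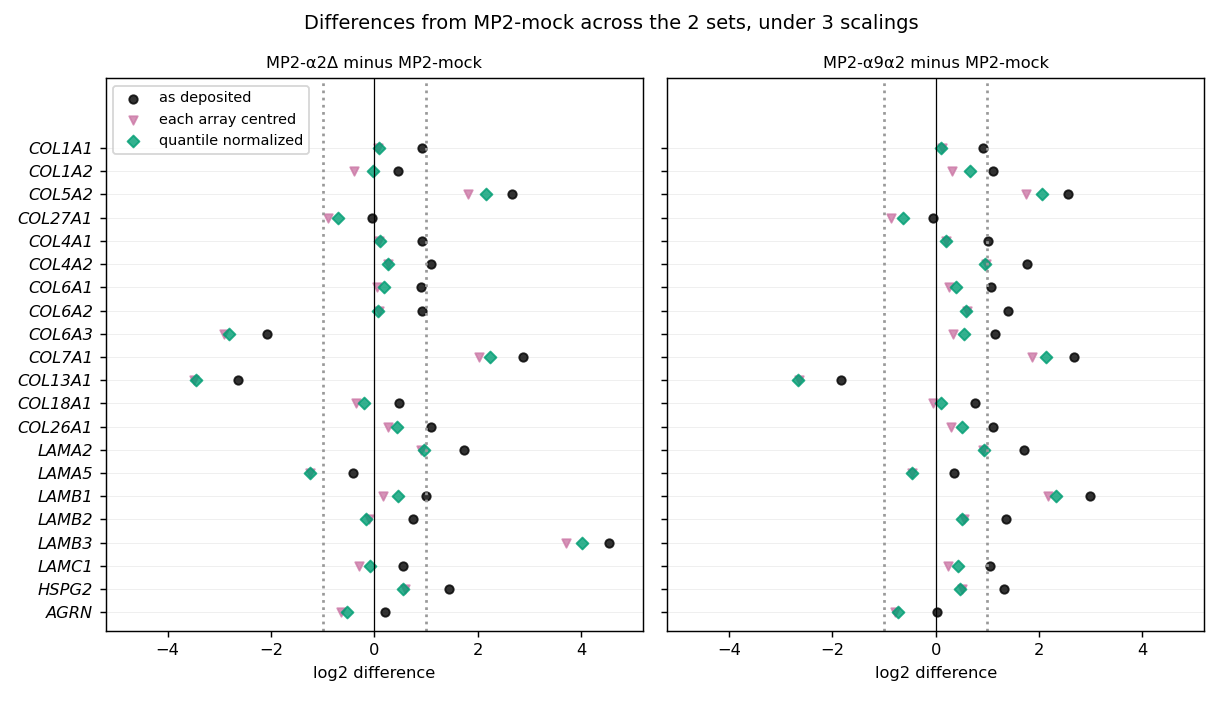
Log2 difference from MP2-mock (x axis) of the 21 matrix genes over 4 on any array, in MP2-α2Δ (left) and MP2-α9α2 cells (right), as deposited, with each array centred and with quantile normalization. Most genes lie under the 2-fold lines once the arrays are rescaled, while COL5A2, COL7A1 and COL13A1 stay past them in both panels (LAMB3 is at the floor on both arrays of the right panel and is not drawn there).

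The genes that modify, fold and cut collagen chains were read from a list of 30, of which 29 had a probe set. None of 20 measured was called in MP2-α2/CI or MP2-α2/TC cells against MP2-mock, where 0.65% and 0.67% of all genes were. In MP2-α2Δ against MP2-α9α2 cells 2 of 21 were higher (10.1% of all genes) and 2 lower (4.97%). BMP1, the proteinase that removes the C-propeptide of fibrillar procollagens, read 8.50 in MP2-α2Δ cells and 6.55 in MP2-α9α2 cells, and FKBP10, a collagen chaperone, read 10.04 in MP2-α2Δ cells and 8.83 in MP2-α9α2. The prolyl 3-hydroxylase family genes P3H2 (6.70 in MP2-α2Δ, 8.71 in MP2-α9α2) and P3H3 (6.96 in MP2-α2Δ, 8.78 in MP2-α9α2) were lower in MP2-α2Δ cells. The collagen chaperone SERPINH1 read 12.11 in MP2-α2Δ, 11.81 in MP2-α9α2, 11.43 in MP2-α2/CI, 11.43 in MP2-α2/TC and 11.50 in MP2-mock cells, and LOX, the cross-linking lysyl oxidase, was at the floor on all 5 arrays.

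Of 26 matrix receptors 23 had a probe set. Of 17 measured, 1 was called in MP2-α2/CI cells (0.65% of all genes) and 1 in MP2-α2/TC cells (0.67%) against MP2-mock, in both DDR2, a receptor kinase for fibrillar collagen (10.82 in MP2-α2/CI, 10.64 in MP2-α2/TC and 9.48 in MP2-mock cells). In MP2-α2Δ against MP2-α9α2 cells 3 of 18 were higher, namely ITGA2, ITGA1 and ITGB4, against 10.1% of all genes, and 2 were lower, against 4.97%. ITGB8 read 6.70 in MP2-α2Δ cells and 9.14 in MP2-α9α2 cells, and DDR2 read 9.73 in MP2-α2Δ cells and 11.44 in MP2-α9α2. ITGB1, the common partner of α1, α2 and α9, read 14.24 in MP2-α2Δ, 14.84 in MP2-α9α2, 13.61 in MP2-α2/CI, 13.61 in MP2-α2/TC and 13.57 in MP2-mock cells.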

How the data were processed

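Expression was measured on 1 Affymetrix array for each of 5 MIAPaCa2 populations. For each probe set the authors deposited 1 value, already normalized and read here as log2. Its log base was inferred from the range, since no source used here states it. GCRMA and MAS5 appear in the submitters' processing notes, with neither a role nor a version. The sets of arrays normalized together were taken from the arrays' minima.

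Of 54675 probe sets 62 controls were left out, and 41091 of the others carried 1 gene symbol, 1801 several and 11721 none. All 62 matrix genes matched a RefSeq gene identifier, and 0 were renamed. Lower values were set to an array's floor, so that differences against the floor are lower bounds. A gene counted as measured in a comparison if it was above the floor on either array. Centring subtracted from each array its median over the probe sets that all 5 arrays read above their floors. The counting of 2-fold differences, which gives no p-value, was checked on simulated arrays with known differences. Python 3.11.15, pandas 2.3.3, numpy 2.4.6 and matplotlib 3.10.9 were used. Signal over the floor and the number of arrays limit the precision.

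The members, gene lists and comparisons were chosen with earlier results of these data known. Named by rule were the members at least 2-fold apart between arrays of 1 set, by the main or another probe set, the member with the highest mean in each class, partner chains, and up to 3 genes per list with the largest differences. COL5A2, COL27A1, HSPG2, FKBP10, ITGB4 and the genes at the floor were named after their values were seen. SERPINH1, ITGA6, ITGB1 and COL20A1 were also named outside these rules. Alternatives covered the floor, the scaling, the choice of probe set and the fold. Promoter windows are RefSeq's, assembly GRCh38.p14, and 47 of the 62 genes had one.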

Additional observations from a re-analysis of the deposited data

Results flagged for a closer look

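Among the 21 matrix genes over 4 on any array, COL13A1 was the 1 gene that differed from MP2-mock by more than 0.1 in opposite directions on the arrays of α2 cells, by -0.17 in MP2-α2/CI cells on collagenI and by 0.73 in MP2-α2/TC cells on plastic. The difference between these was not tested, as each rests on 1 array and both share the MP2-mock array. Its other 2 probe sets did not show opposite directions of this size.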

How the results depend on the processing

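No paired analysis was possible because each population had 1 array, and for the same reason no array could be left out. In the comparisons within a set, no matrix gene over 4 changed its side of 2-fold under any of 6 changes of floor, scaling or probe set, nor did those with a probe set left once the _x_at and _s_at kinds, which can match several transcripts, were omitted (60 of 84 pairs of gene and comparison). The count for MP2-α2Δ minus MP2-α9α2 was 4 of 56 probe sets with every probe set counted, against 3 of 31 genes. Counts moved by more than 1.5 times only with the fold. At 1.5-fold there was 1 gene for MP2-α2/CI minus MP2-mock, 2 for MP2-α2/TC minus MP2-mock, 1 for MP2-α2/CI minus MP2-α2/TC and 8 for MP2-α2Δ minus MP2-α9α2 cells. Across the sets, the counts of 10, 15 and 10 (MP2-α2Δ minus MP2-mock, MP2-α9α2 minus MP2-mock and MP2-α2Δ minus MP2-α2/CI) became 6, 4 and 6 with quantile normalization and, for MP2-α9α2 minus MP2-mock, 5 with each array centred. With every probe set counted they were 21, 27 and 20, but each of these is out of 59 measured probe sets and not out of 32, 31 and 32 genes. The probe set with the largest difference gave 16 of 32 genes for MP2-α2Δ minus MP2-mock. The 1.5-fold threshold gave 17 and 18 for MP2-α2Δ minus MP2-mock and minus MP2-α2/CI, and 3-fold gave 6 for MP2-α2Δ and 6 for MP2-α9α2 minus MP2-mock. For the counts by other probe sets and at 1.5-fold or 3-fold, the share of all genes was not computed, so they are not a result about the matrix genes. The medians over measured matrix genes, 0.46, 0.75 and 0.48 as deposited, turned to -0.033 in all 3 without a floor, since genes at the minimum then count, and to -0.38, -0.054 and -0.35 when centred. With quantile normalization they were -0.0084 for MP2-α2Δ minus MP2-mock, 0.13 for MP2-α9α2 minus MP2-mock and -0.0097 for MP2-α2Δ minus MP2-α2/CI. They were larger, at 0.74, 1.09 and 0.90, with a floor at 4, at 0.74, 1.06 and 0.68 by the probe set with the largest difference, and at 0.64, 0.98 and 0.58 without _x_at and _s_at probe sets. Over all measured genes the medians were 0.37, 0.33 and 0.40 as deposited and -0.47, -0.48 and -0.43 when centred. With quantile normalization the medians over all measured genes were -0.017, -0.0086 and -0.025. The change of sign on centring was thus also that of all genes. The shift between the sets moves with these scalings by construction.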

Other observations

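A probe set that carries the symbols of both LAMA5 and its antisense gene LAMA5-AS1 was in no comparison. It read 3.12 in MP2-α2Δ, 2.70 in MP2-α9α2 and 4.76 in each of MP2-α2/CI, MP2-α2/TC and MP2-mock cells, so that it was nowhere above the level of MP2-mock.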
